A study of Trichoderma asperellum with 12 samples.

Results

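The genes described here are those that the annotation of *Trichoderma asperellum* TJ01 assigns to the tricarboxylic acid (TCA) cycle, its entry reactions and the glyoxylate cycle. They were found by text. A gene was taken when its leading KEGG orthology entry named citrate synthase, aconitate, isocitrate dehydrogenase, oxoglutarate dehydrogenase, succinyl-CoA synthetase, succinate dehydrogenase, fumarate hydratase, malate dehydrogenase, isocitrate lyase, malate synthase, pyruvate dehydrogenase, pyruvate carboxylase or ATP citrate lyase. This gave 65 of the 11647 genes in the table, taken by name and not by expression, and 56 of them had a mean of at least 1 FPKM (a count of fragments divided by transcript length and library depth) and could be tested.

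*T. asperellum* is a soil fungus used in biological control, and dichlorvos is an organophosphate insecticide. Mycelium of strain TJ01 was grown for 24 h in potato dextrose medium and then for 24 h in Burk broth, a nitrogen-poor medium, at 28 °C and 180 rpm, and RNA was sequenced. The control (CK) received no dichlorvos, and the D1, D5 and D10 groups received 100, 500 and 1000 μg/mL, with 3 libraries per group and the same strain and medium throughout. The question for each gene was whether its transcript level differed from the control, and among the doses.

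The TCA cycle oxidises acetyl-CoA in mitochondria. Citrate synthase joins acetyl-CoA to oxaloacetate. Each turn releases CO2 at isocitrate dehydrogenase and oxoglutarate dehydrogenase, equal in carbon to what was added, while passing electrons to respiration. The glyoxylate cycle leaves at isocitrate and skips both CO2-releasing steps: isocitrate lyase splits isocitrate into succinate and glyoxylate, and malate synthase joins glyoxylate to another acetyl-CoA, so that fungi can build sugars and amino acids from acetate, ethanol or fatty acids. Pyruvate carboxylase also refills the cycle, by making oxaloacetate from pyruvate.

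Not every gene the names caught belongs to these cycles. In all, 29 genes carried names of the TCA cycle itself, 6 of its entry reactions, 3 of the glyoxylate cycle, 3 of ATP citrate lyase, 3 of regulators of pyruvate dehydrogenase, 2 of succinate dehydrogenase assembly factors and 2 of malic enzymes. A further 8 matched enzymes of lysine synthesis and 5 enzymes of leucine synthesis, whose names contain text of the search. The other 4 matched other reactions of aconitate or methylisocitrate. The annotation was clear for 44 genes. For the other 21 it was uncertain, because the gene carried more than 1 KEGG entry or its best match had an E-value above 1e-60. This grading was made after the values had been seen.

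Control replicate 1 stood apart from the other libraries. Its log2 values correlated with those of control replicates 2 and 3 at 0.895 and 0.897, against 0.984 between these 2, and at no less than 0.970 between any treated libraries of 1 dose. Its median FPKM over the tested genes was 25.7, against 15.2 and 16.4 in the other controls and 18.1 to 23.6 in the treated libraries. Of the 56 tested genes, 13 differed by more than 2-fold in control replicate 1 from the mean of the other controls, and 0 to 4 did so in each other library against the rest of its group. Changes are therefore given from a fit of all 12 libraries, and calls against the control that were gained or lost over 11 libraries, without control replicate 1, are given as well. Because median FPKM differed between libraries, each library's log2 values were also centred on their median. Calls that centring ended are given, as are calls against the control that it added without control replicate 1. Centring moved the median change of all tested genes at D10 from 0.18 to -0.08, and the numbers of all genes higher and lower at D10 from 2168 and 1175 to 1746 and 2024.

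Over the 65 genes the share of all FPKM was 1.17 to 1.36% in the control libraries, 1.71 to 2.02% at D1, 1.79 to 1.94% at D5 and 2.03 to 2.20% at D10, so every treated library was above every control. The sum over these genes was 11000 to 12194.5 FPKM in the controls and 19473 to 20938 at D10. A large part of that rise lay in the main isocitrate lyase gene and malate synthase. Their mean FPKM went from 1391 to 4023 and from 822 to 3303 between the control and D10. At adjusted p under 0.05, 9 of the 56 tested genes were higher at D1 than in the control, against 5.26% of all tested genes. None was lower at D1 by limma, where the background was 1.02%, and 0 were lower at an unadjusted p under 0.05, where it was 6.11%. At D5, 12 were higher and 4 lower, with backgrounds of 13.5% and 7.0%. At D10, 21 were higher and 6 lower, with backgrounds of 24.3% and 13.2%. The 56 genes as a whole were thus called higher in 16.1, 21.4 and 37.5% of cases at the 3 doses. The share was above the background at each dose and the share lower was close to it at D5 and D10. Their median log2 change was 0.28, 0.13 and 0.31, beside 0.02, 0.10 and 0.18 for all tested genes. Without control replicate 1, 16, 17 and 26 genes were higher and 1, 5 and 7 lower, with backgrounds of 13.5, 29.4 and 38.3% for higher and 3.32, 12 and 16.3% for lower. With that library left out and the others centred, 10, 10 and 10 were higher, with backgrounds of 7.27, 15.7 and 23.3%, and 4, 18 and 17 lower, with backgrounds of 10.8, 23.5 and 30.6%, so the balance moved with the scaling in the list and in all tested genes. A moderated F-test over the 4 groups called 25 of the 56 genes, against 34.0% of all tested genes, and without control replicate 1 it called 34, against 56.9%.

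The glyoxylate cycle showed the clearest rise: all 3 of its genes were higher at every dose. The main isocitrate lyase gene, jgi_Trias1_22393, held 94.7% of the FPKM of that step and was the most highly expressed of the 65. It had 1059, 1837 and 1277 FPKM in control replicates 1 to 3, 2892, 3663 and 3177 at D1, 3518, 3857 and 3350 at D5, and 3975, 3881 and 4213 at D10. Every treated library was above every control, and the group means were 1391 ± 401, 3244 ± 390, 3575 ± 258 and 4023 ± 171 FPKM (SD, n = 3). The log2 fold change was 1.25 at D1 (SE 0.23, adjusted p = 0.00522), 1.40 at D5 (SE 0.23, adjusted p = 0.00106) and 1.57 at D10 (SE 0.23, adjusted p = 0.000193). Over 11 libraries the changes were 1.08, 1.22 and 1.39, and with centring as well they were 0.78, 0.83 and 0.91, all still called. Centring of all 12 libraries alone left 1.19 at D1, which was not called.

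The second isocitrate lyase gene, jgi_Trias1_149307, was expressed at a far lower level. It had 88.0, 55.6 and 89.5 FPKM in the controls, 164, 206 and 199 at D1, 157, 164 and 189 at D5, and 301, 223 and 232 at D10. No treated library overlapped the controls. Its log2 fold changes were 1.30, 1.15 and 1.71 (SE 0.21 each), with adjusted p = 0.00242, 0.00245 and 5.4e-05 from limma. In a fit of the control and D1 alone neither isocitrate lyase gene was called.

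Malate synthase, jgi_Trias1_132204, rose more than either. It had 895, 884 and 685 FPKM in the controls, 2662, 3526 and 2563 at D1, 2791, 3331 and 2922 at D5, and 3257, 3068 and 3583 at D10. The lowest treated library lay well above the highest control, and control replicate 1 did not stand apart for this gene. The log2 fold changes were 1.82 (SE 0.21, adjusted p = 0.000139), 1.88 (SE 0.21, adjusted p = 4.52e-05) and 2.01 (SE 0.21, adjusted p = 1.07e-05), and 1.60, 1.56 and 1.60 without control replicate 1 and with centring. Between D1 and D10 the changes of the 2 isocitrate lyase genes and malate synthase were 0.32, 0.40 and 0.19 on the log2 scale (adjusted p = 0.349, 0.191 and 0.548), and no contrast among the doses was called for any of them over 12 libraries. Over 11 libraries jgi_Trias1_149307 was higher at D10 than at D5, by 0.56 (adjusted p = 0.0491).

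**Figure D1:**
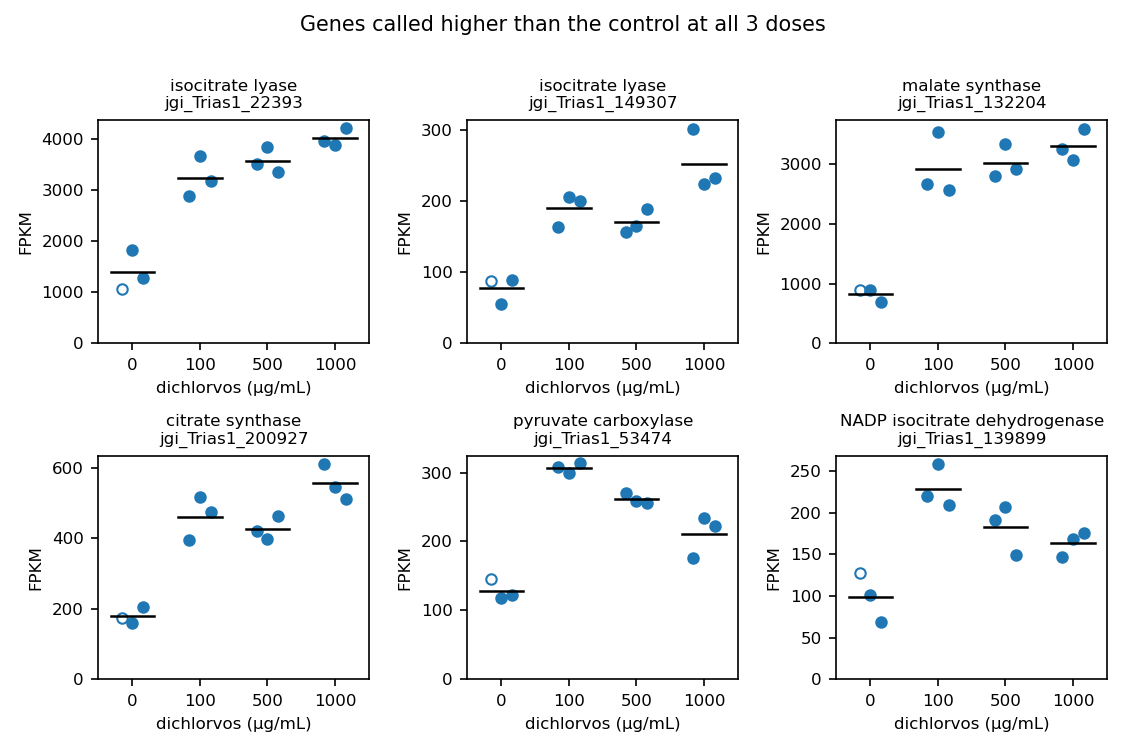
FPKM of 6 genes in each library (points) and the group means (lines) against the dichlorvos dose, with control replicate 1 as the open point and linear axes that start at 0. All 9 treated libraries lie above the 3 controls in each panel, and pyruvate carboxylase and NADP isocitrate dehydrogenase have their highest group mean at 100 μg/mL.

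Carbon enters the cycle from pyruvate at pyruvate carboxylase and at pyruvate dehydrogenase. Pyruvate carboxylase, jgi_Trias1_53474, the only gene of that step, had 145, 117 and 122 FPKM in the controls, 308, 299 and 314 at D1, 271, 259 and 256 at D5, and 176, 234 and 223 at D10. It was highest at the lowest dose, and every treated library was above the controls. The log2 fold change was 1.26 at D1 (SE 0.16, adjusted p = 0.000397), 1.03 at D5 (SE 0.16, adjusted p = 0.000806) and 0.71 at D10 (SE 0.16, adjusted p = 0.00427). The D10 call was lost without control replicate 1 and with centring (0.32), and with centring of the 12 libraries it fell to 0.45. The change from D1 to D10 was -0.55 (adjusted p = 0.0265), and -0.74 after centring, and without any one of 5 of the libraries of these doses it was -0.59 to -0.42 and not called.

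The pyruvate dehydrogenase complex, which makes acetyl-CoA from pyruvate, was not called at any dose over 12 libraries in its clearly annotated subunits. The E1 alpha subunit gene jgi_Trias1_93117, named here because the highest gene of the step by FPKM has a weak annotation, had 363, 174 and 188 FPKM in the controls, 206, 201 and 212 at D1, 201, 196 and 185 at D5, and 223, 247 and 233 at D10. Its treated values lay between control replicate 1 and the other controls, except for 1 D5 library below control replicate 3. The E1 beta gene jgi_Trias1_183737 and the E2 genes jgi_Trias1_133937 and jgi_Trias1_53188 showed the same split of the controls, with 250, 191 and 131 FPKM in control replicate 1 and 136 and 142, 69.5 and 72.3, and 50.5 and 51.9 FPKM in replicates 2 and 3. Over 11 libraries jgi_Trias1_93117 and jgi_Trias1_133937 were higher at D10, by 0.37 (adjusted p = 0.025) and 0.52 (adjusted p = 0.021), and neither was with centring as well (-0.11 and 0.04). With that setting jgi_Trias1_183737 was lower at D5 and D10, at -0.73 and -0.52, and jgi_Trias1_133937 at D5, at -0.47 (adjusted p = 0.033). Centring of all 12 libraries gave the same calls, at -0.79, -0.58 and -0.71.

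The gene that remains of this step, named as an E2 subunit, jgi_Trias1_60001, held 65.6% of the FPKM of the step, but its match had an E-value of only 3e-07, so its name is uncertain. It had 350, 623 and 483 FPKM in the controls, 446, 854 and 915 at D1, 837, 1249 and 1628 at D5, and 1889, 1354 and 1073 at D10. At D5 and D10 all libraries were above the controls. The log2 fold change was 1.34 at D5 (SE 0.34, adjusted p = 0.0156) and 1.57 at D10 (SE 0.34, adjusted p = 0.00336). Without replicate 2 or 3 of D5 the D5 change was 1.30 or 1.11 and not called, with centring it was 1.17 and not called, and without control replicate 1 and with centring the changes were 0.73 and 0.87 and not called.

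Of the 3 genes named as regulators of the complex, 1 was called over 12 libraries. Pyruvate dehydrogenase phosphatase, which switches the complex on by removing phosphate, had 2 genes. The gene jgi_Trias1_67123 had 82.6, 42.0 and 30.8 FPKM in the controls, 84.0, 88.0 and 67.8 at D1, 100, 126 and 86.5 at D5, and 165, 184 and 186 at D10. The D5 and D10 libraries were all above the controls, and those of D10 above all others. Its log2 fold change was 1.10 at D5 (SE 0.30, adjusted p = 0.0191) and 1.88 at D10 (SE 0.30, adjusted p = 0.00032), and 1.49 and 2.27 without control replicate 1, where the D1 change of 1.12 was called too (adjusted p = 0.0021; 0.83 and called with centring as well). The D5 change was 0.79 to 1.01 and not called without control replicate 2, control replicate 3 or D5 replicate 2. Between D1 and D10 the change was 1.15 (adjusted p = 0.0125), or 1.04 and not called without D1 replicate 3.

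The other phosphatase gene, jgi_Trias1_177893, had 36.5, 143 and 139 FPKM in the controls and 60.9 to 95.2 in the treated libraries. Its changes of -0.18, -0.10 and -0.36 over 12 libraries were not called, but without control replicate 1 they were -0.82, -0.74 and -1.01 and called (adjusted p = 0.005, 0.0038 and 0.00026). Whether this gene was called therefore rested on which controls were used. The pyruvate dehydrogenase kinase gene jgi_Trias1_72537, whose product switches the complex off, had 68.4 FPKM in control replicate 1, 218 and 207 in the other controls and 155 to 286 in the treated libraries, and it was not called over 12 or 11 libraries. It was lower at D5 without control replicate 1 and with centring, at -0.57 (adjusted p = 0.042).

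**Figure D2:**
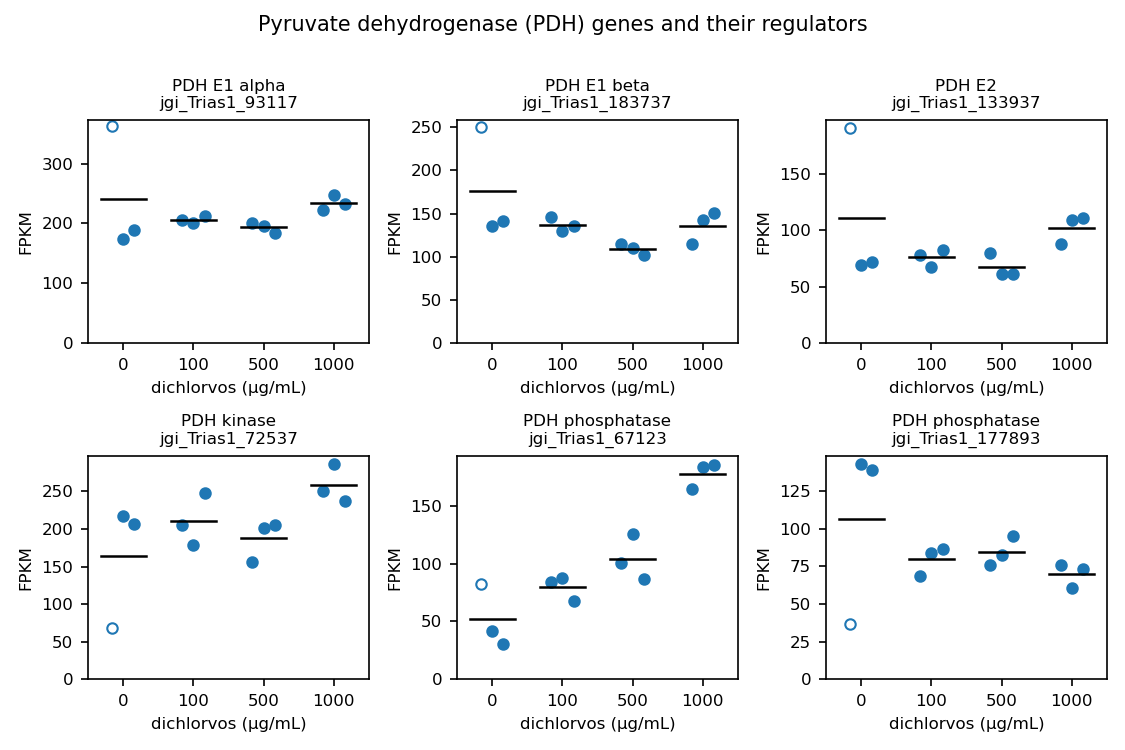
FPKM of 3 pyruvate dehydrogenase (PDH) subunit genes, the kinase and both phosphatases in each library (points; lines, group means; open point, control replicate 1) against the dichlorvos dose. Control replicate 1 lies far from control replicates 2 and 3 in each panel, above them for the subunits and for jgi_Trias1_67123 and below them for the kinase and jgi_Trias1_177893.

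Citrate synthase had 5 genes. The most highly expressed, jgi_Trias1_27897, held 71.2% of the FPKM of the step and had 695, 1051 and 877 FPKM in the controls, 911, 1398 and 1701 at D1, 1222, 1227 and 1435 at D5, and 1937, 1637 and 1398 at D10. The D5 and D10 libraries were above the controls, while 1 of D1 was not. It was called at D10 only among the doses, with a log2 fold change of 0.93 (SE 0.25, adjusted p = 0.012). That call was lost without D10 replicate 1 (0.81), with centring (0.67), and without control replicate 1 and with centring (0.29).

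A second gene, jgi_Trias1_200927, held 22.4% of the step and changed more firmly. It had 173, 159 and 204 FPKM in the controls, 394, 516 and 474 at D1, 421, 399 and 463 at D5, and 610, 545 and 512 at D10. No treated library overlapped a control. Log2 fold changes were 1.36, 1.26 and 1.63 (SE 0.17 each), with adjusted p = 0.000348, 0.000282 and 1.3e-05 from limma, and the gene was called under every setting that was run. Group means of the main gene were 874 ± 178 FPKM in the control and 1657 ± 270 at D10, and those of jgi_Trias1_200927 were 179 ± 23.1 and 555 ± 50.1 (SD, n = 3).

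Of the other citrate synthase genes, jgi_Trias1_79155 stayed at 0.12 to 1.87 FPKM and was not tested. Both others carry 4 KEGG entries, and for jgi_Trias1_137680 the closest protein is a major facilitator superfamily transporter, so neither can be taken as a citrate synthase. The gene jgi_Trias1_137680 had 79.5, 23.9 and 31.4 FPKM in the controls, 29.9, 21.8 and 27.7 at D1, 19.97, 16.8 and 16.5 at D5, and 14.1, 14.4 and 16.5 at D10. Its libraries of D5 and D10 were below all controls. The log2 fold change was -1.11 at D5 (SE 0.35, adjusted p = 0.0414) and -1.33 at D10 (SE 0.35, adjusted p = 0.00985), and -0.60 and -0.83 without control replicate 1, still called. The D5 call was lost without any one of 9 of the other libraries, at -1.19 to -1.06, and without the filter on low FPKM. With only 2 groups in each fit the D5 and D10 calls of jgi_Trias1_137680 were both lost. The gene jgi_Trias1_65131 was lower at D10 than at D1 by 0.85 on the log2 scale (adjusted p = 0.025), which was lost without any one of 4 libraries of these doses, at -0.81 to -0.71. Over 11 libraries it was higher than the control at D1, by 0.92 (adjusted p = 0.017), and at D5, by 0.66 (adjusted p = 0.035), and neither was called with centring as well (0.63 and 0.27).

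Aconitate hydratase, jgi_Trias1_55799, which turns citrate into isocitrate, had 560, 423 and 400 FPKM in the controls, 593, 708 and 893 at D1, 590, 666 and 768 at D5, and 889, 835 and 725 at D10. All treated libraries were above the controls, control replicate 1 being the nearest. Only the D10 change was called over 12 libraries, at 0.83 (SE 0.21, adjusted p = 0.00745), and with centring it was 0.58 and not called, or 0.50 without control replicate 1 as well. Over 11 libraries without centring it was higher at all 3 doses, by 0.81, 0.70 and 0.98 (adjusted p = 0.013, 0.011 and 0.00085).

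The TCA cycle continues from isocitrate by the NAD-dependent isocitrate dehydrogenase, which has 2 subunit genes. The higher, jgi_Trias1_436740, had 786, 691 and 648 FPKM in the controls, 673, 715 and 788 at D1, 600, 610 and 606 at D5, and 683, 585 and 558 at D10. Only the D5 libraries lay apart from the controls, below them. Neither it nor jgi_Trias1_130313, at 663, 496 and 492 FPKM in the controls and 324 to 540 in the treated libraries, was called at any dose over 12 or 11 libraries. The changes at D10 were -0.22 and -0.48 over 12 libraries, and without control replicate 1 and with centring they were -0.62 and -0.83 and called (adjusted p = 0.011 and 0.0068), as were the D5 changes of -0.53 and -0.64. Centring of all 12 libraries gave a call for jgi_Trias1_130313 at D10 only (-0.74).

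The NADP-dependent isocitrate dehydrogenase, jgi_Trias1_139899, which supplies NADPH, was called higher at every dose. It had 127, 102 and 69.0 FPKM in the controls, 220, 259 and 209 at D1, 192, 206 and 149 at D5, and 146, 169 and 176 at D10. All treated libraries were above the controls, with the highest at D1. The log2 fold change was 1.24 at D1 (SE 0.23, adjusted p = 0.00497), 0.90 at D5 (SE 0.23, adjusted p = 0.0133) and 0.76 at D10 (SE 0.23, adjusted p = 0.0187). Over 11 libraries these were 1.44, 1.10 and 0.96. The D5 call was lost without control replicate 3 (0.66) or D5 replicate 2 (0.81). The D10 call was lost without control replicate 3 (0.52), D10 replicate 2 (0.73) or D10 replicate 3 (0.70), and with centring (0.50). With only 2 groups in each fit none of the 3 changes was called.

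As a description chosen after the values had been seen, the FPKM of the main isocitrate lyase gene was divided by the summed FPKM of both NAD isocitrate dehydrogenase genes in each library, which does not depend on library scaling. The ratio was 0.73, 1.55 and 1.12 in the controls, a mean of 1.13 ± 0.41 (SD, n = 3), or 1.33 without control replicate 1. It was 2.67 ± 0.34 at D1, 3.51 ± 0.26 at D5 and 4.07 ± 0.71 at D10, and no treated library overlapped the controls. The same numerator over the E1 gene of oxoglutarate dehydrogenase gave means of 1.36, 3.65, 4.27 and 5.81 for the control, D1, D5 and D10. Malate synthase over the main malate dehydrogenase gene gave 2.29, 8.04, 10.7 and 8.87. FPKM ratios describe transcripts per length, not the flow of carbon.

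**Figure D3:**
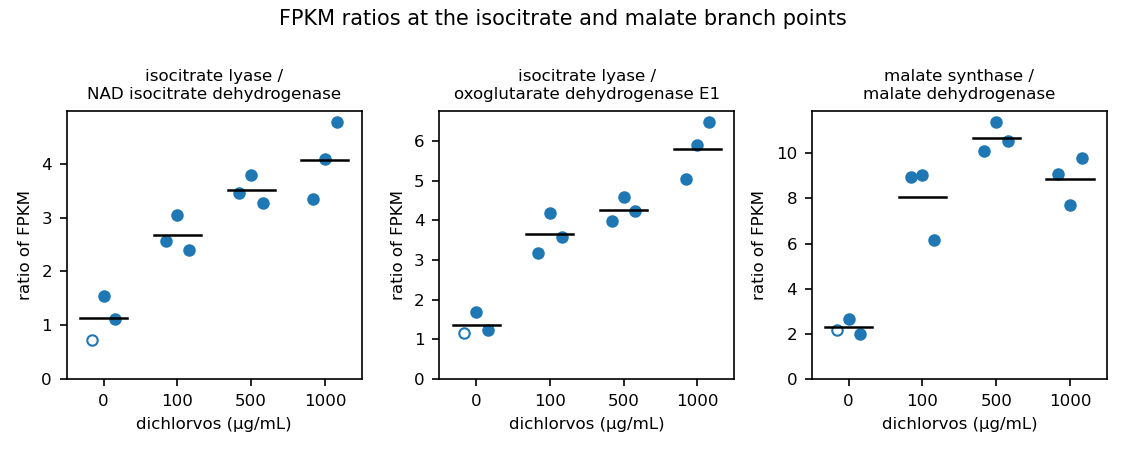
Ratios of FPKM within each library (points; lines, group means; open point, control replicate 1) against the dichlorvos dose, on linear axes from 0. The ratio of isocitrate lyase to NAD isocitrate dehydrogenase has a mean of 1.13 in the control and 4.07 at 1000 μg/mL, and in each panel all 9 treated libraries lie above the 3 controls.

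Oxoglutarate dehydrogenase, the second CO2-releasing step, was the step of the cycle at which both clearly annotated genes were called lower over 12 libraries. The E1 gene jgi_Trias1_51043 had 909, 1091 and 1024 FPKM in the controls, 908, 874 and 887 at D1, 882, 842 and 792 at D5, and 788, 658 and 650 at D10. Every treated library was below every control, although the nearest, control replicate 1 and D1 replicate 1, were at 908.96 and 907.77 FPKM. The change was called at D10, where it was -0.53 (SE 0.16, adjusted p = 0.023), and without control replicate 1 and with centring it was -1.09 (adjusted p = 0.00019), with D1 and D5 called as well at -0.54 and -0.72. The call was lost without control replicate 2 or 3 or D10 replicate 2 or 3, at -0.52 to -0.47. The E2 gene jgi_Trias1_66489 had 310, 222 and 218 FPKM in the controls and 194 to 208 at D1, 148 to 169 at D5 and 157 to 174 at D10. It was lower by 0.64 on the log2 scale at D5 (SE 0.17, adjusted p = 0.0182) and by 0.59 at D10 (SE 0.17, adjusted p = 0.016). The D5 call was lost without D5 replicate 2 or 3, and the D10 call without D10 replicate 3 (-0.57). With only 2 groups in each fit, the D10 call of jgi_Trias1_51043 was lost, as were the D5 and D10 calls of jgi_Trias1_66489. The gene jgi_Trias1_66489 was called at D1 too without control replicate 1 and with centring, at -0.41.

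Succinyl-CoA synthetase, which makes succinate with the gain of a nucleoside triphosphate, has 2 expressed subunit genes. The beta subunit gene jgi_Trias1_61461 had 301, 221 and 208 FPKM in the controls, 254, 267 and 271 at D1, 245, 230 and 229 at D5, and 242, 253 and 251 at D10. The treated libraries lay within the range of the controls. It and the alpha subunit gene jgi_Trias1_62285, at 147 to 226 FPKM, were not called in any contrast with the control over 12 or 11 libraries. The alpha gene had 187, 202 and 185 FPKM in the controls and 147, 150 and 168 at D5, all below the controls, while D1 and D10 overlapped them. It was lower without control replicate 1 and with centring, at -0.70 at D5 (adjusted p = 0.0067) and -0.47 at D10 (adjusted p = 0.034). A second alpha and a second beta gene, jgi_Trias1_185901 and jgi_Trias1_65657, reached at most 1.06 and 1.69 FPKM and were not tested.

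Succinate dehydrogenase links the cycle to the respiratory chain, and its 4 subunits, each with 1 clear and expressed gene, rose together at D10. The iron-sulfur subunit gene jgi_Trias1_51244, the highest of them, had 405, 342 and 333 FPKM in the controls, 488, 555 and 502 at D1, 448, 527 and 555 at D5, and 705, 656 and 710 at D10. All treated libraries were above the controls. It was higher by 0.50 on the log2 scale at D5 (SE 0.16, adjusted p = 0.0467) and 0.94 at D10 (SE 0.16, adjusted p = 0.000668). The D5 call was lost without any one of the 11 libraries other than control replicate 1, at 0.44 to 0.59, and with centring (0.34, or 0.20 without control replicate 1 as well). The flavoprotein gene jgi_Trias1_127843, the cytochrome b560 gene jgi_Trias1_67921 and the membrane anchor gene jgi_Trias1_60713 were higher at D10 by 0.85 (SE 0.17), 0.86 (SE 0.19) and 0.85 (SE 0.16), with adjusted p = 0.00155, 0.00321 and 0.00108 from limma. Centring ended the D10 calls of the flavoprotein and cytochrome genes (0.59 and 0.60). Over 11 libraries jgi_Trias1_51244, jgi_Trias1_127843 and jgi_Trias1_60713 were also higher at D1, by 0.61, 0.51 and 0.55 (adjusted p = 0.013, 0.041 and 0.026), and jgi_Trias1_127843 and jgi_Trias1_60713 at D5, by 0.44 and 0.50 (adjusted p = 0.04 and 0.018). Without control replicate 1 and with centring the flavoprotein, cytochrome and anchor genes were at 0.31, 0.30 and 0.40 and no longer called, while jgi_Trias1_51244 was at 0.55 and called.

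A further 6 genes carry the name of the flavoprotein subunit on uncertain evidence. The gene jgi_Trias1_67943, with 4 KEGG entries, changed more than any other gene of the list that carries a TCA cycle name. It had 0.21, 0.35 and 0.17 FPKM in the controls, 1.35, 5.91 and 2.22 at D1, 16.9, 15.3 and 9.34 at D5, and 32.4, 31.3 and 27.7 at D10. The groups did not overlap and followed the order of dose. On the log2(FPKM + 1) scale, which understates changes of low genes, the changes were 1.59 (SE 0.36, adjusted p = 0.0198), 3.54 (SE 0.36, adjusted p = 2.45e-05) and 4.66 (SE 0.36, adjusted p = 8.89e-07). With a pseudocount of 0.1 the first and second were 3.02 and 5.33. The D1 call was lost without control replicate 3 (1.55) or D1 replicate 2 (1.15). It was also higher at D5 than at D1, by 1.95 (adjusted p = 0.0122), which was lost without any one of 4 libraries of these doses, at 1.62 to 1.86. From D1 to D10 the change was 3.07 (adjusted p = 6.74e-05 from limma), and this was called under every setting that was run.

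The gene jgi_Trias1_28403 was low throughout, at 0.63, 1.03 and 1.54 FPKM in the controls, 2.19, 2.07 and 1.70 at D1, 0.86, 0.68 and 0.35 at D5, and 2.91, 3.36 and 4.56 at D10. D10 lay above all other groups and D5 overlapped the controls. The change at D10 was 1.17 (SE 0.26, adjusted p = 0.00389), or 0.52 with control replicate 1 left out and centring, where it was not called and D5 was lower than the control (-0.88, adjusted p = 0.012), and the change from D5 to D10 was 1.50 (SE 0.26, adjusted p = 0.00404). The gene jgi_Trias1_52991, at 21.6 to 40.5 FPKM, was not called. Of the 3 untested genes, jgi_Trias1_283689 was listed at 0 in all controls, at 0.17 to 0.34 FPKM at D1, 1.39 to 1.87 at D5 and 1.39 to 2.11 at D10, while jgi_Trias1_46858 and jgi_Trias1_62938 reached at most 0.88 FPKM. The assembly factor genes jgi_Trias1_61731 and jgi_Trias1_145083, both with weak matches, were not called against the control over 12 libraries. Over 11 libraries jgi_Trias1_145083 was higher at D10, by 0.60 (adjusted p = 0.022). The change of jgi_Trias1_61731 from D1 to D10 was 0.92 (adjusted p = 0.046), which was lost without any one of 8 libraries, at 0.64 to 0.95, and with centring (0.72).

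Fumarate hydratase, jgi_Trias1_144428, had 158, 230 and 218 FPKM in the controls, 207, 250 and 269 at D1, 161, 190 and 206 at D5, and 213, 216 and 187 at D10. The groups overlapped and no contrast with the control was called over 12 or 11 libraries. With control replicate 1 left out and centring it was lower at D5 (-0.67, adjusted p = 0.018) and D10 (-0.61, adjusted p = 0.02). A second gene with a weak match, jgi_Trias1_153579, had 18.6 FPKM in control replicate 1 and 6.46 to 12.4 in the other libraries, and was not called against the control.

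Malate dehydrogenase, which closes the cycle, had 2 genes. The main gene jgi_Trias1_59908 had 410, 331 and 340 FPKM in the controls, 298, 391 and 416 at D1, 276, 293 and 278 at D5, and 359, 397 and 365 at D10. Its D5 libraries lay below the controls, and the change of -0.35 was not called (adjusted p = 0.19), though it was -0.64 and called without control replicate 1 and with centring (adjusted p = 0.016). The gene jgi_Trias1_199741 had 126 to 138 FPKM in the controls, 141 to 175 at D1, 154 to 167 at D5 and 212 to 262 at D10, with no overlap of any dose with the controls. It was higher at D10 than in the control by 0.88 (SE 0.16, adjusted p = 0.000815), and by 0.38 (adjusted p = 0.0496) without control replicate 1 and with centring. It was also higher at D10 than at D5 and D1, by 0.59 (adjusted p = 0.0322) and 0.62 (adjusted p = 0.0121). The first was lost without any one of 5 libraries of these doses, at 0.54 to 0.63, and the second without D1 replicate 1 (0.54) or D10 replicate 2 (0.56), and both with centring (0.50 and 0.43). Neither malic enzyme gene, jgi_Trias1_45737 and jgi_Trias1_148453, was called against the control over 12 or 11 libraries. The first had 112 FPKM in control replicate 1 and 177 to 327 elsewhere, and the second 32.4, 15.95 and 11.3 FPKM in the controls, 11.7 to 17.8 at D1 and D5 and 9.42 to 10.02 at D10, where all libraries were below the controls. The D10 change of jgi_Trias1_148453, -0.83 over 12 libraries (adjusted p = 0.063), was called with centring (-1.08, adjusted p = 0.0039) and without control replicate 1 as well (-0.90, adjusted p = 0.0067).

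ATP citrate lyase cuts citrate in the cytosol into acetyl-CoA and oxaloacetate for lipid synthesis. The subunit gene jgi_Trias1_53703 had 147, 139 and 157 FPKM in the controls, 164, 170 and 220 at D1, 158, 152 and 177 at D5, and 225, 230 and 203 at D10. The D10 libraries were above the controls and D5 overlapped them. The D10 change was 0.57 (SE 0.17, adjusted p = 0.0166), and it was not called without control replicate 2, D10 replicate 1 or D10 replicate 2 (0.53 to 0.55), with centring (0.31), or without control replicate 1 and with centring (0.08). The other subunit gene, jgi_Trias1_229182, changed by 0.46 at D10 (adjusted p = 0.063), and by 0.61 without control replicate 1 (adjusted p = 0.0049). The gene that remains, with 3 KEGG entries, jgi_Trias1_157533, had 14.9 to 37.5 FPKM and was not called.

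**Figure D4:**
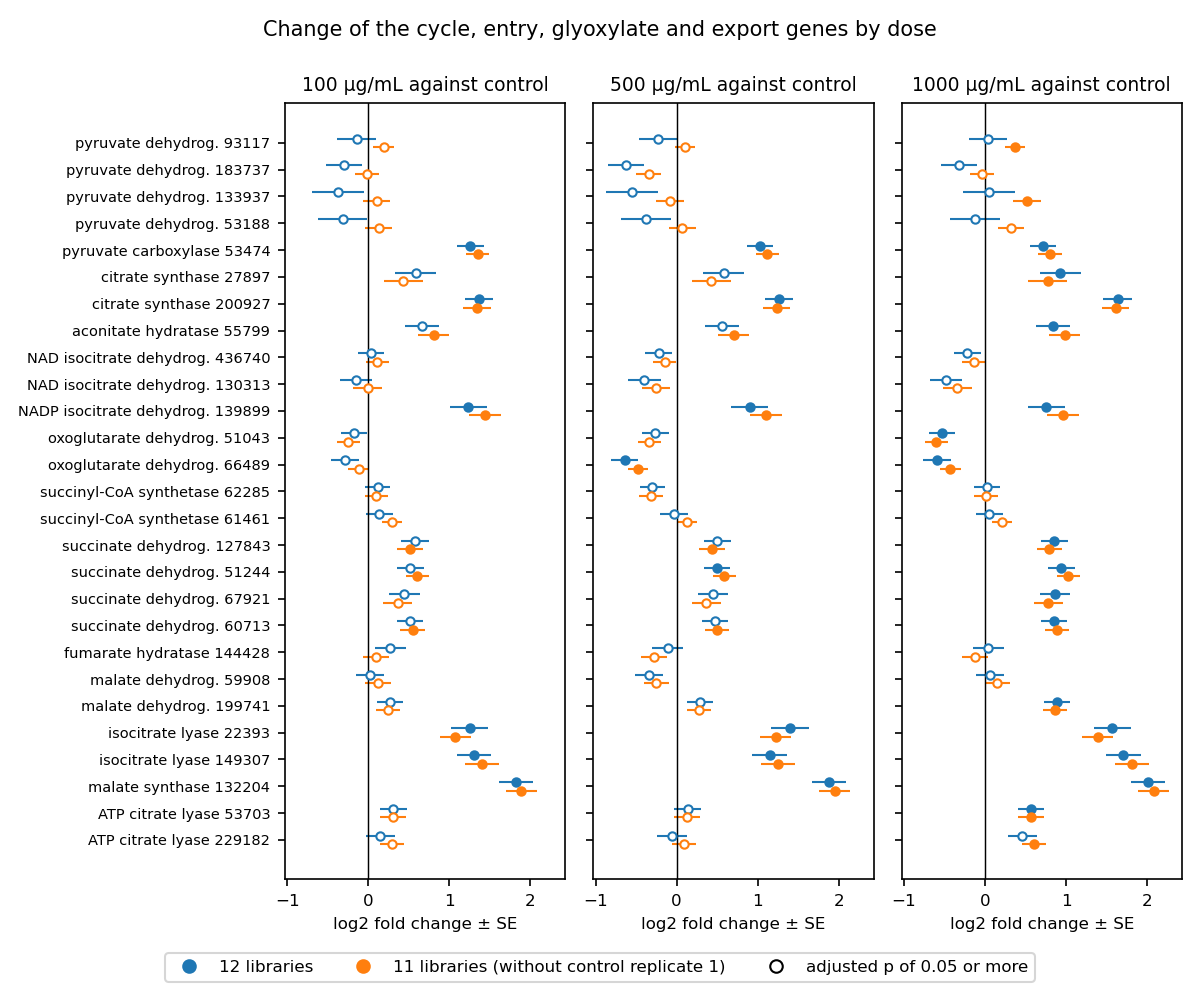
Log2 fold change against the control with its standard error for the clearly annotated and tested entry, cycle, glyoxylate and ATP citrate lyase genes, in order of the pathway, at 100, 500 and 1000 μg/mL, over 12 libraries (blue) and 11 libraries (orange), with filled points where the adjusted p is under 0.05. Malate synthase has the largest change at each dose (1.82, 1.88 and 2.01 over 12 libraries), and both oxoglutarate dehydrogenase genes lie below 0 at all doses.

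Taking the 25 clearly annotated and tested genes of the cycle, its entry and the glyoxylate cycle together, 6 were higher at D1, 7 at D5 and 13 at D10, and 0, 1 and 2 were lower, against the backgrounds given above. The median log2 change was 0.27, 0.29 and 0.71, and without control replicate 1 and with centring it was 0.01, -0.12 and 0.29, with 6, 6 and 6 genes higher and 2, 9 and 7 lower, beside 7.27, 15.7 and 23.3% higher and 10.8, 23.5 and 30.6% lower of all tested genes. Among the doses, D5 differed from D1 by 2 higher genes of the 56 (background 2.03%) and no lower one by limma (background 0.336%; 7 at an unadjusted p under 0.05, where the background was 4.69%). D10 differed from D5 by 3 higher and 2 lower (6.74% and 3.15%), and from D1 by 7 higher and 6 lower (17.1% and 8.68%). Control replicate 1 enters these contrasts only through the estimate of the spread, and with it left out they were 3 and 4, 12 and 5, and 10 and 12, with backgrounds of 6.68 and 3.02%, 15.2 and 8.65%, and 27.5 and 15.9%.

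The lysine and leucine enzymes caught by the names include the largest falls of the list at D10 over 12 libraries. Fungi make lysine by the alpha-aminoadipate route, whose first steps copy the chemistry from citrate synthase to isocitrate dehydrogenase with a substrate 1 carbon longer. Homoaconitate hydratase, jgi_Trias1_26141, had 64.4, 38.2 and 44.7 FPKM in the controls, 38.8, 54.0 and 37.9 at D1, 30.2, 27.6 and 30.9 at D5, and 17.2, 18.7 and 16.9 at D10. D1 overlapped the controls, and D5 and D10 did not. Its log2 fold change was -0.68 at D5 (SE 0.22, adjusted p = 0.0494) and -1.40 at D10 (SE 0.22, adjusted p = 0.000388), and D10 was below D1 by 1.24 (adjusted p = 0.00151). The D5 call was lost without any one of 11 libraries, control replicate 1 among them, at -0.73 to -0.47.

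Homoisocitrate dehydrogenase, jgi_Trias1_89433, had 82.5, 74.5 and 81.6 FPKM in the controls, 64.6, 77.1 and 68.5 at D1, 40.7, 47.1 and 48.8 at D5, and 27.4, 32.5 and 27.4 at D10. The libraries of D5 and D10 were below all others. The change was -0.79 at D5 (SE 0.17, adjusted p = 0.00555), -1.42 at D10 (SE 0.17, adjusted p = 3.39e-05) and -1.24 from D1 to D10 (adjusted p = 0.000194). From D5 to D10 it was -0.63 (adjusted p = 0.0333), which was lost without any one of 8 libraries, at -0.71 to -0.58. Homocitrate synthase, jgi_Trias1_459521, the first enzyme of the route, had 785 FPKM in control replicate 1, 251 and 180 in the other controls and 150 to 356 in the treated libraries, and was not called against the control over 12 or 11 libraries. With centring it was lower at D10, at -1.19 (adjusted p = 0.012), and at -0.78 (adjusted p = 0.015) without control replicate 1 as well.

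The other lysine names rest on less. The gene jgi_Trias1_59314, a weak match to homoisocitrate dehydrogenase, had 4.65, 3.83 and 4.11 FPKM in the controls, 6.69, 9.10 and 8.48 at D1, 13.9, 20.3 and 18.9 at D5, and 29.0, 29.8 and 19.9 at D10. It went the opposite way to jgi_Trias1_89433, and only D5 and D10 overlapped. The change was 1.84 at D5 (SE 0.25, adjusted p = 0.000239), 2.37 at D10 (SE 0.25, adjusted p = 1.13e-05) and 1.57 from D1 to D10 (adjusted p = 0.000575). That from D1 to D5 was 1.03 (adjusted p = 0.0492), lost without any one of 11 libraries, at 0.92 to 1.19, and with centring (0.94). Over 11 libraries the D1 change of 0.86 was called too (adjusted p = 0.026), and with centring as well it was 0.57 and not called.

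The gene jgi_Trias1_57269, a weak match to homoaconitate hydratase, had 1.40, 1.54 and 2.29 FPKM in the controls, 2.26, 1.55 and 2.65 at D1, 1.91, 1.14 and 1.56 at D5, and 4.18, 7.84 and 3.51 at D10. Only D10 lay apart. The change was 1.12 at D10 (SE 0.30, adjusted p = 0.0111), or 0.83 and not called without D10 replicate 2 and 0.86 and not called with centring (0.55 without control replicate 1 as well). Against D5 it was 1.23 (adjusted p = 0.0227), lost without any one of 3 libraries of these doses at 0.94 to 1.24, and against D1 it was 0.92 (adjusted p = 0.04), lost without any one of 8 libraries at 0.63 to 1.04 and with centring (0.73). Of the other homoaconitate hydratase genes, jgi_Trias1_52846 and jgi_Trias1_180081, at 2.69 to 11.4 and 0.40 to 2.46 FPKM, were not called against the control over 12 or 11 libraries, though jgi_Trias1_180081 was lower at D5 without control replicate 1 and with centring (-0.84, adjusted p = 0.048). The gene jgi_Trias1_450212, at no more than 0.37 FPKM, was not tested.

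Leucine synthesis uses 2-isopropylmalate synthase and 3-isopropylmalate dehydrogenase, whose names again contain text of the search. The first, jgi_Trias1_410509, had 272, 273 and 257 FPKM in the controls, 268, 307 and 279 at D1, 198, 211 and 212 at D5, and 137, 130 and 122 at D10. D1 overlapped the controls, D5 was below them and D10 was lowest. At D5 the change of -0.37 was not called, but it was -0.35 and called over 11 libraries (adjusted p = 0.046), and -0.74 with centring as well. The change at D10 was -1.04 (SE 0.14, adjusted p = 0.000128), and -1.13 against D1 (adjusted p = 0.000124) and -0.67 against D5 (adjusted p = 0.0123). The call against D5 was lost without D5 replicate 2, D10 replicate 2 or D10 replicate 3, at -0.67 to -0.63.

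The dehydrogenase step had 3 genes. The gene jgi_Trias1_59059 had 0.19, 0.77 and 1.98 FPKM in the controls, 27.0, 30.9 and 38.4 at D1, 56.3, 55.4 and 75.8 at D5, and 96.2, 147 and 112 at D10. No groups overlapped, and the order was that of dose. On the log2(FPKM + 1) scale the changes were 4.15, 5.09 and 5.99 (SE 0.31 each), the largest of the list at each dose, with adjusted p = 5.78e-06, 3.05e-07 and 2.54e-08 from limma, and D10 was above D1 by 1.84 (adjusted p = 0.00102). The gene jgi_Trias1_32885 had 28.8, 55.2 and 66.2 FPKM in the controls and 49.4 to 119 in the treated libraries and was not called against the control over 12 or 11 libraries, but was lower at D10 without control replicate 1 and with centring (-0.59, adjusted p = 0.047). As a description, the FPKM of jgi_Trias1_59059 was 0.0168 of that of jgi_Trias1_32885 on average in the control, 0.334 at D1, 0.936 at D5 and 2.09 at D10, so the gene that was nearly silent in the control exceeded the other at the highest dose. The third gene, jgi_Trias1_22288, had 3 KEGG entries and 15.1 to 43.7 FPKM. It was called only without control replicate 1, at 0.60 at D5 (adjusted p = 0.02) and 0.67 at D10 (adjusted p = 0.0079). An untested gene named 2-isopropylmalate synthase, jgi_Trias1_46619, was listed at 0 in all libraries but 1.

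**Figure D5:**
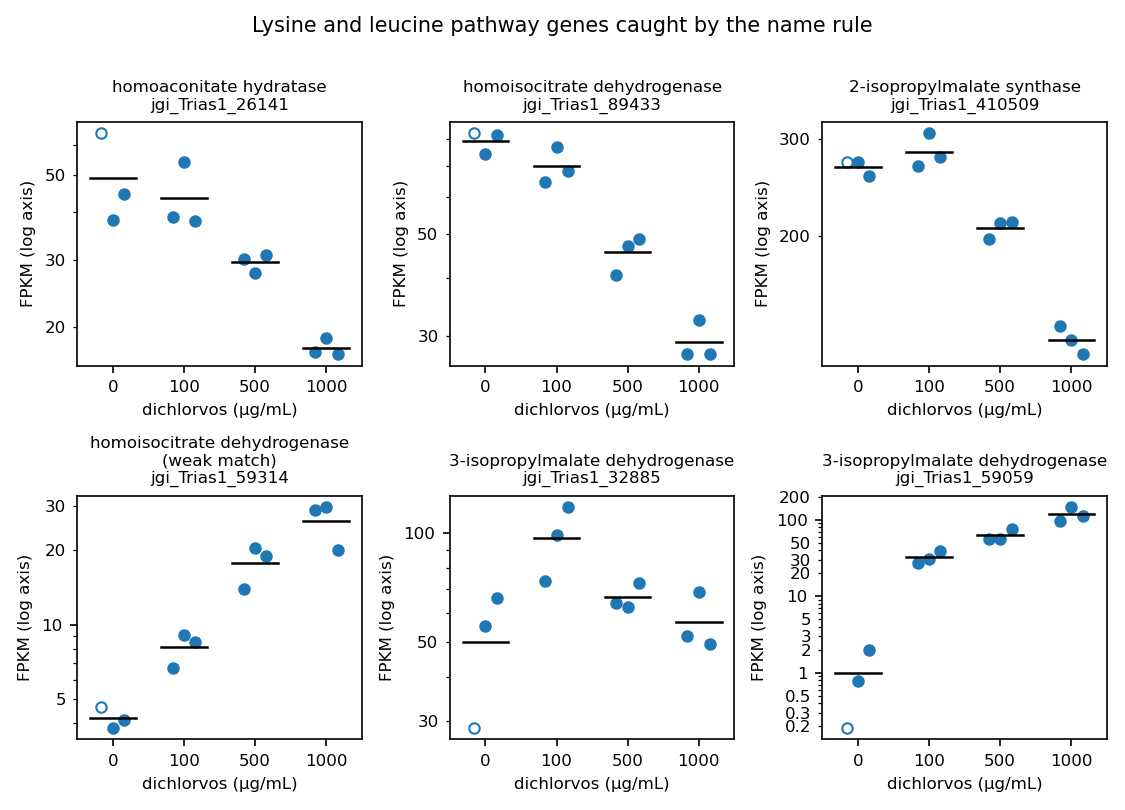
FPKM on log axes for 6 lysine and leucine pathway genes in each library (points; lines, group means; open point, control replicate 1) against the dichlorvos dose. The genes jgi_Trias1_26141, jgi_Trias1_89433 and jgi_Trias1_410509 have their lowest values at 1000 μg/mL, while jgi_Trias1_59059 goes from 0.19 to 1.98 FPKM in the control to 96.2 to 147.

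Of the remaining names, trans-aconitate methyltransferase, jgi_Trias1_57936, had 4.28, 5.06 and 5.90 FPKM in the controls, 13.1, 12.2 and 19.3 at D1, 5.90, 8.95 and 7.81 at D5, and 3.49, 5.63 and 3.58 at D10. It was high at D1 alone. The change at D1 was 1.36 (SE 0.27, adjusted p = 0.00968), or 1.17 and not called without D1 replicate 3, and D10 was below D1 by 1.60 (SE 0.27, adjusted p = 0.00109). It was below the control at D10 without control replicate 1 and with centring, at -0.81 (adjusted p = 0.025). Aconitate decarboxylase, jgi_Trias1_31595, and methylisocitrate lyase, jgi_Trias1_205461, at 0.35 to 2.35 and 0.67 to 2.90 FPKM, were not called against the control over 12 or 11 libraries. The gene jgi_Trias1_205461 was lower at each dose without control replicate 1 and with centring, at -0.81, -0.69 and -0.64. A second methylisocitrate lyase gene, jgi_Trias1_330035, was too low to test.

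Genes that feed acetyl-CoA to these cycles or carry their acids across the mitochondrial membrane were listed by name in the same way. Of 9 tested acetyl-CoA supply genes, 4, 6 and 6 were higher at D1, D5 and D10, beside 5.26, 13.5 and 24.3% of all tested genes, and 1 was lower at D10, beside 13.2%. The median log2 changes were 1.03, 1.01 and 1.09. Over 11 libraries 7, 6 and 6 were higher, beside 13.5, 29.4 and 38.3%, and 1 was lower at D5 and at D10, beside 12 and 16.3%. The name search caught acetoacetyl-CoA synthetases as well, among them jgi_Trias1_138119, which changed by 2.03 at D10 (adjusted p = 0.00022). Pyruvate decarboxylase, the enzyme that turns pyruvate to acetaldehyde, had genes moving both ways. The gene jgi_Trias1_63019 was higher at D10 by 3.20 (adjusted p = 3.6e-05), at a low level. It had 2.42, 0.10 and 0.69 FPKM in the controls and 12.2, 18.2 and 18.3 at D10. By far the most highly expressed of these genes, jgi_Trias1_187777, was lower by 1.81 (adjusted p = 0.025). It had 876 FPKM in control replicate 1 and 5593 and 6119 in the other controls against 804 to 933 at D10. Over 11 libraries the change of jgi_Trias1_187777 was -2.72 (adjusted p = 1.9e-06). Of 8 tested mitochondrial carrier genes, 1, 2 and 3 were higher and none lower, beside 5.26, 13.5 and 24.3% higher of all tested genes. Over 11 libraries 2, 2 and 2 were higher, beside 13.5, 29.4 and 38.3%, and 0, 2 and 1 lower, beside 3.32, 12 and 16.3%. A citrate carrier, jgi_Trias1_52915, had 185, 336 and 233 FPKM in the controls and 1944, 1825 and 1527 at D10, a change of 2.84 (adjusted p = 4.3e-06). A second, jgi_Trias1_58852, changed by 1.13 at D10 (adjusted p = 0.0016), and by 0.91 (adjusted p = 0.00071) without control replicate 1. Phosphoenolpyruvate carboxykinase and fructose-1,6-bisphosphatase, which lead from malate and oxaloacetate to sugar, had 1 gene each and neither was called, at log2 changes of 1.37 and 1.07 at D1, 0.82 and 0.59 at D5, and 0.56 and 0.80 at D10. These values rested on control replicate 1, which had 502 and 105 FPKM against 2900 and 3087, and 446 and 436, in the other controls. Without it the changes of phosphoenolpyruvate carboxykinase, jgi_Trias1_132829, were 0.51, -0.04 and -0.30, and those of fructose-1,6-bisphosphatase, jgi_Trias1_25000, were 0.38, -0.09 and 0.12, again not called.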

How the data were processed

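RNA was sequenced from 12 libraries, 3 per group. The deposited FPKM values were made by the authors against the JGI Trias1 gene set of *T. asperellum*. The processing notes name BWA, Bowtie and RSEM without roles or versions, and how reads shared by similar genes were divided is not given in the sources used here. The name rule for the 65 genes did not use their values. The rule and the other lists were set with earlier results of these data known.

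Genes with a mean of at least 1 FPKM (8916) were tested with limma 3.58.1 in R 4.3.3 on log2(FPKM + 1), with all 4 groups in 1 fit and a variance trend. P-values were adjusted over all tested genes by Benjamini-Hochberg, and a gene was called at adjusted p under 0.05. The authors' NOISeq rule was not used, because it gives a probability and not a p-value. The methods say that each experiment was repeated 3 times, but not whether the libraries came from separate cultures. The p-values therefore measure the spread between these libraries. An exact test of 3 against 3 cannot go below a two-sided p of 0.1. Alternatives were a pseudocount of 0.1, other filters, TPM, median centring, a replicate block, 2 groups per fit, no trend, a 2-fold threshold, and each library left out. The branch ratios and the grading of annotations were added after seeing the data. Every member was named. Library values were given for the highest gene of each entry, cycle, glyoxylate and ATP citrate lyase step and for those called at over 2-fold in any contrast. From each other list at most 3 genes past both thresholds were named, largest change at D10 first. For glutamate decarboxylase and dihydrolipoamide dehydrogenase, genes with a higher mean FPKM than the one so named were given as well. No sequences were used, since 0 gene IDs matched the reference table.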

Additional observations from a re-analysis of the deposited data

How the results depend on the processing

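No called change of a member gene turned direction under any setting. Of 72 calls of a gene in a contrast, those lost were 2 with a pseudocount of 0.1, 4 without the filter on low FPKM, 4 with values rescaled to TPM, 15 with median centring, 3 without the variance trend, 19 with only 2 groups per fit, and 13 without control replicate 1 and with centring. With a filter of mean FPKM of 5, all 67 calls that could be tested held. Besides the losses given gene by gene above, 2 groups per fit ended the D1 calls of jgi_Trias1_57936 and jgi_Trias1_67943. The same setting ended the D5 calls of jgi_Trias1_26141, jgi_Trias1_51244, jgi_Trias1_67123 and jgi_Trias1_89433, and the D10 calls of jgi_Trias1_53474, jgi_Trias1_53703 and jgi_Trias1_57269. The numbers of member genes higher and lower moved by more than 1.5 times as follows. With 2 groups per fit, 4 were higher at D1, 0 lower at D5 (4 with all groups) and 3 lower at D10, and among the doses 1 was lower from D1 to D5, 10 higher and 4 lower from D5 to D10, and 10 lower from D1 to D10. Over all 8916 tested genes that setting gave 148 higher at D1, 153 lower at D5 and 650 lower at D10. With all groups these were 469, 624 and 1175. Among the doses it gave 155 lower from D1 to D5, 1330 higher and 727 lower from D5 to D10, and 1243 lower from D1 to D10. With all groups these were 30, 601, 281 and 774. Without control replicate 1 and with centring, 4 were lower at D1, 18 lower at D5, 10 higher and 17 lower at D10, 9 lower from D1 to D5, 6 higher and 7 lower from D5 to D10, and 15 lower from D1 to D10. Over all tested genes the first 4 of these numbers were 964, 2094, 2073 and 2726. Among the doses they were 483 lower from D1 to D5, 1101 higher and 1031 lower from D5 to D10, and 2142 lower from D1 to D10. With centring alone, 10 were lower at D10, 1 higher from D1 to D5, 4 lower from D5 to D10 and 4 higher from D1 to D10. Over all tested genes these were 2024, 175, 413 and 1294. A change of over 2-fold as well left 1 lower at D5, 11 higher at D10, 0 lower from D5 to D10 and 4 higher from D1 to D10. Over all tested genes these were 310, 1715, 189 and 1159. Without the filter 2 were lower at D5, with a filter of 5 FPKM 1 was higher from D5 to D10, and with a pseudocount of 0.1 or TPM 1 was higher from D1 to D5. Over all genes tested under these settings the numbers were 597 of 11647, 456 of 7038, and 149 and 180 of 8916. The cause of these shifts was not tested.

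Leaving out each library in turn gave 8 to 16 genes higher and 0 to 1 lower at D1, 9 to 17 and 1 to 5 at D5, 18 to 26 and 4 to 7 at D10, 0 to 3 and 0 to 4 from D1 to D5, 1 to 12 and 0 to 5 from D5 to D10, and 4 to 10 and 4 to 12 from D1 to D10. Over all tested genes the ranges were 269 to 1202 and 17 to 296 at D1, and 827 to 2617 and 296 to 1072 at D5. At D10 they were 1682 to 3415 and 890 to 1456. Among the doses they were 99 to 596 and 7 to 269 from D1 to D5, and 234 to 1354 and 75 to 771 from D5 to D10. From D1 to D10 they were 991 to 2454 and 522 to 1422. The F-test called 21 to 34 member genes, against 2223 to 5070 of all tested genes. Pairing of the libraries by replicate number did not hold over all groups. Deviations of same-numbered libraries from their group means correlated at -0.319 to 0.495, above 0.1 in 7 of 18 pairs. Among the control, D1 and D5 the correlations were 0.333 to 0.495 for replicates 1 and 3, and -0.014 to 0.166 for replicate 2. Those with D10 libraries were -0.319 to 0.001. With the replicate number as a block, 6 of the 72 calls were lost, 1 gene was higher from D1 to D5 and 1 lower from D5 to D10. Over all tested genes these 2 numbers were 178 and 275. Depth was not given. It was estimated as the inverse of the most common ratio of low FPKM values, 0.3 to 3, to those of control replicate 2. The estimate for control replicate 1 was 0.823 of control replicate 2, and 0.979 to 1.02 for the others. Such a ratio does not separate depth from scaling. Members under 1 FPKM were not tested.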

Other observations

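A second way from oxoglutarate to succinate is the GABA shunt, in which glutamate is decarboxylated to 4-aminobutyrate (GABA) and GABA is turned to succinate through succinate semialdehyde. Of 14 tested genes named for the shunt or for glutamate dehydrogenase, 2, 4 and 6 were higher at D1, D5 and D10 by limma at adjusted p under 0.05, beside 5.26, 13.5 and 24.3% of all tested genes, and 1 was lower at D5 and at D10, beside 7.0 and 13.2%. The median log2 change was 0.50, 0.81 and 0.44. Without control replicate 1 the numbers higher were again 2, 4 and 6, beside 13.5, 29.4 and 38.3%, those lower were 1, 1 and 2, beside 3.32, 12 and 16.3%, and the median was 0.23, 0.46 and 0.45. Succinate semialdehyde dehydrogenase, the last enzyme of the shunt, had several genes, and jgi_Trias1_90547 changed most. It had 3.8, 7.4 and 9.2 FPKM in the controls, 82.9, 89.1 and 96.0 at D1, 134, 129 and 145 at D5, and 139, 222 and 160 at D10, with changes of 3.60, 4.21 and 4.53 (adjusted p = 4.6e-06, 3.3e-07 and 6.2e-08). Another, jgi_Trias1_80110, had 141, 161 and 174 FPKM in the controls and 306, 418 and 615 at D10, a change of 1.43 (adjusted p = 0.0027). Glutamate decarboxylase jgi_Trias1_59975 had 6.3, 32.7 and 77.1 FPKM in the controls and 128, 144 and 98.5 at D10. Its change of 2.19 (adjusted p = 0.018) was 1.26 (adjusted p = 0.019) without control replicate 1. The glutamate decarboxylase gene with the highest mean FPKM, jgi_Trias1_69968, went the other way. It had 172, 279 and 211 FPKM in the controls and 111, 107 and 85 at D10, and every treated library was below every control. Another, jgi_Trias1_132244, had 26.8, 160 and 80.45 FPKM in the controls and 53.7, 43.8 and 38.9 at D10, within the range of the controls.

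Pyruvate and oxoglutarate dehydrogenase each have their own E2 subunit, which carries lipoate attached by other enzymes. Both work with dihydrolipoamide dehydrogenase (E3). Of 4 tested genes of this list, 1 was higher and 1 lower at D10, beside 24.3 and 13.2% of all tested genes, and without control replicate 1 it was 2 and 0, beside 38.3 and 16.3%. Lipoate-protein ligase jgi_Trias1_195669 had 3.9, 1.8 and 2.5 FPKM in the controls and 7.8, 8.1 and 5.6 at D10, a change of 1.16 (adjusted p = 0.0073). The dihydrolipoamide dehydrogenase gene with the highest mean FPKM, jgi_Trias1_44780, had 628, 281 and 293 FPKM in the controls and 381, 423 and 432 at D10. Its D10 libraries lay between control replicate 1 and the other controls. Another gene of that name, jgi_Trias1_63278, was far lower, with 11.8, 2.5 and 4.6 FPKM in the controls and 1.6, 0.9 and 3.0 at D10. Its change of -1.24 (adjusted p = 0.038) was -0.73 (adjusted p = 0.087) and not called without control replicate 1. The only gene of the methylcitrate cycle list, 2-methylcitrate dehydratase jgi_Trias1_64847, was higher at D1 by 1.21 (adjusted p = 0.022), and by 1.61 (adjusted p = 2.1e-05) without control replicate 1.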
